A study of Mus musculus with 6 samples.

Results

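The genes described here are 35 genes of glycolysis and the pentose phosphate pathway, with the transporters and regulators that act on them, taken by symbol from a table of 54532 mouse genes. Their transcripts were counted in 6 RNA-seq libraries made from bone marrow cells that had been enriched on CD8 magnetic beads. In the 3 ruxolitinib libraries (pools 1 to 3) the donors were female CByB6F1 mice with immune bone marrow failure, 2 to 5 months old, given ruxolitinib, which inhibits JAK1 and JAK2, kinases that pass on cytokine signals. The 3 control libraries (pools 4 to 6) came from female CByB6F1 mice of that age range with the same marrow failure and no ruxolitinib, and each library pooled cells of 2 to 3 mice of 1 group. The sources used here do not give how the failure was induced, the dose, the length of treatment or whether control mice received a vehicle. All 35 symbols are in the table and 34 passed the filter on low counts, with Eno2 the one that did not. Aldoa stands there under 2 identifiers, and the one with nearly all its reads was used.

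Glycolysis splits glucose into pyruvate. Activated T cells run it at a high rate, turn much of the pyruvate into lactate with lactate dehydrogenase and export the lactate. Mature red cells have no mitochondria and depend on glycolysis for their ATP, use the liver and red cell pyruvate kinase gene Pklr where most other cells use Pkm, and divert part of the flow through bisphosphoglycerate mutase (Bpgm), whose product lowers the oxygen affinity of haemoglobin. The pentose phosphate pathway branches off after the first step, and its oxidative part supplies NADPH, which red cells, neutrophils and macrophages use in handling oxidants, while its non-oxidative part supplies ribose for nucleotides.

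The ruxolitinib libraries held 13829808 to 14139605 counted reads and the control libraries 15740514 to 17708196. Levels are given as CPM, counts per 1000000 reads scaled with edgeR's TMM factors, and fold changes as log2 of ruxolitinib over control ± SE with Benjamini-Hochberg adjusted p from edgeR's quasi-likelihood test over 13480 genes. The libraries differed in the cell types their markers show. The summed level of 17 CD8 T cell identity genes, led by Trbc2 and Thy1, was 1881 to 5377 CPM in the ruxolitinib pools and 10562 to 12894 CPM in the control pools, and 16 of the 17 fell. All 13 measured red cell genes rose, with a sum of 125635 to 246184 CPM in the ruxolitinib pools and 1868 to 2697 CPM in the control pools, led by Hba-a1 and Hbb-bs. All 12 monocyte and macrophage genes, led by Hmox1 and Lyz2, also rose, with a sum of 8998 to 14705 CPM in the ruxolitinib pools and 1365 to 1795 CPM in the control pools. Of 10 neutrophil genes, 8 rose, and the list had a sum of 9045 to 21156 CPM in the ruxolitinib pools and 1577 to 6123 CPM in the control pools. The 2 most abundant were Ngp, which rose, and S100a8, which did not pass the threshold (log2 fold change 1.23 ± 0.52, adjusted p = 0.0674). Of 9 B cell genes, led by Ighm and Igkc, 8 rose, with Ms4a1 and Pax5 at 0 in all control pools. The B cell list had a sum of 1012 to 1584 CPM in the ruxolitinib pools and 204 to 262 CPM in the control pools. Of 7 stromal and endothelial genes, 6 rose, Cxcl12 among them, and Pecam1 did not pass (log2 fold change -0.33 ± 0.20, adjusted p = 0.18). The sum over that list was 123 to 169 CPM in the ruxolitinib pools and 33.0 to 40.2 CPM in the control pools. Of 7 tested dendritic cell genes, 3 rose, Cst3 among them, and 2 fell, Bst2 among them. The sum over the whole dendritic cell list was 522 to 688 CPM in the ruxolitinib pools and 525 to 548 CPM in the control pools. Siglech, Flt3 and Cd209d were at 0 in all control pools. Of 4 tested platelet genes, Ppbp and Gp9 rose. The 2 most abundant, Pf4 (log2 fold change -0.63 ± 0.46, adjusted p = 0.261) and Itga2b (log2 fold change 0.73 ± 0.31, adjusted p = 0.0719), did not pass. The sum over the whole platelet list was 27.1 to 46.5 CPM in the ruxolitinib pools and 19.9 to 49.6 CPM in the control pools. In bulk libraries fewer cells of a type and less RNA per cell cannot be told apart, and what part this mixture has in each gene result was not tested.

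Of the 34 tested genes, 13 rose, 11 fell and 10 did not pass the threshold of adjusted p under 0.05. Among all tested genes 29.9% were called higher and 25.3% lower, so counts of this size are not particular to these genes. Groups without overlap were common as well. All ruxolitinib pools lay above all control pools for 14 of the 34 genes and below them for 9. Of all 13480 tested genes, 4813 lay above and 4090 below. The median log2 fold change was 0.25 over the 34 genes and 0.032 over all tested genes, and single genes ran from -2.90 (Gapdh) to 7.66 (Pklr). Together the 35 genes took 0.793, 0.841 and 0.792% of all reads in ruxolitinib pools 1, 2 and 3, and 1.01, 0.957 and 0.675% in control pools 4, 5 and 6, so the total overlapped between the groups while its composition changed. Per length, in RPKM (CPM per kilobase), Bpgm, Taldo1 and Aldoa were the 3 most abundant of the 35 in the ruxolitinib pools, and Ldha, Aldoa and Pkm were the 3 most abundant in the control pools. Bpgm averaged 532 ± 208 RPKM in the ruxolitinib pools and 8.15 ± 0.502 RPKM in the control pools, and Ldha averaged 131 ± 25.7 RPKM in the ruxolitinib pools and 482 ± 48.7 RPKM in the control pools (SD, n = 3 each). The number that fell was 6 without ruxolitinib pool 1, 7 without ruxolitinib pool 2 and 15 without control pool 6, and the number that rose was 10, 9 and 13 in those fits. The counts over all genes moved too, with 2306 to 3831 lower and 3444 to 4482 higher when 1 pool was left out. With each library scaled to its CD8 T cell identity genes, which moved the median of all tested genes to 2.00, 9 of the 11 that fell had positive values, Gapdh and Ldha had values of -0.79 and -0.015, and none was called lower. All 13 that rose were called higher in that fit as well. Most of all tested genes were also called higher there and very few lower, so these counts are not particular to the members.

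**Figure D1:**
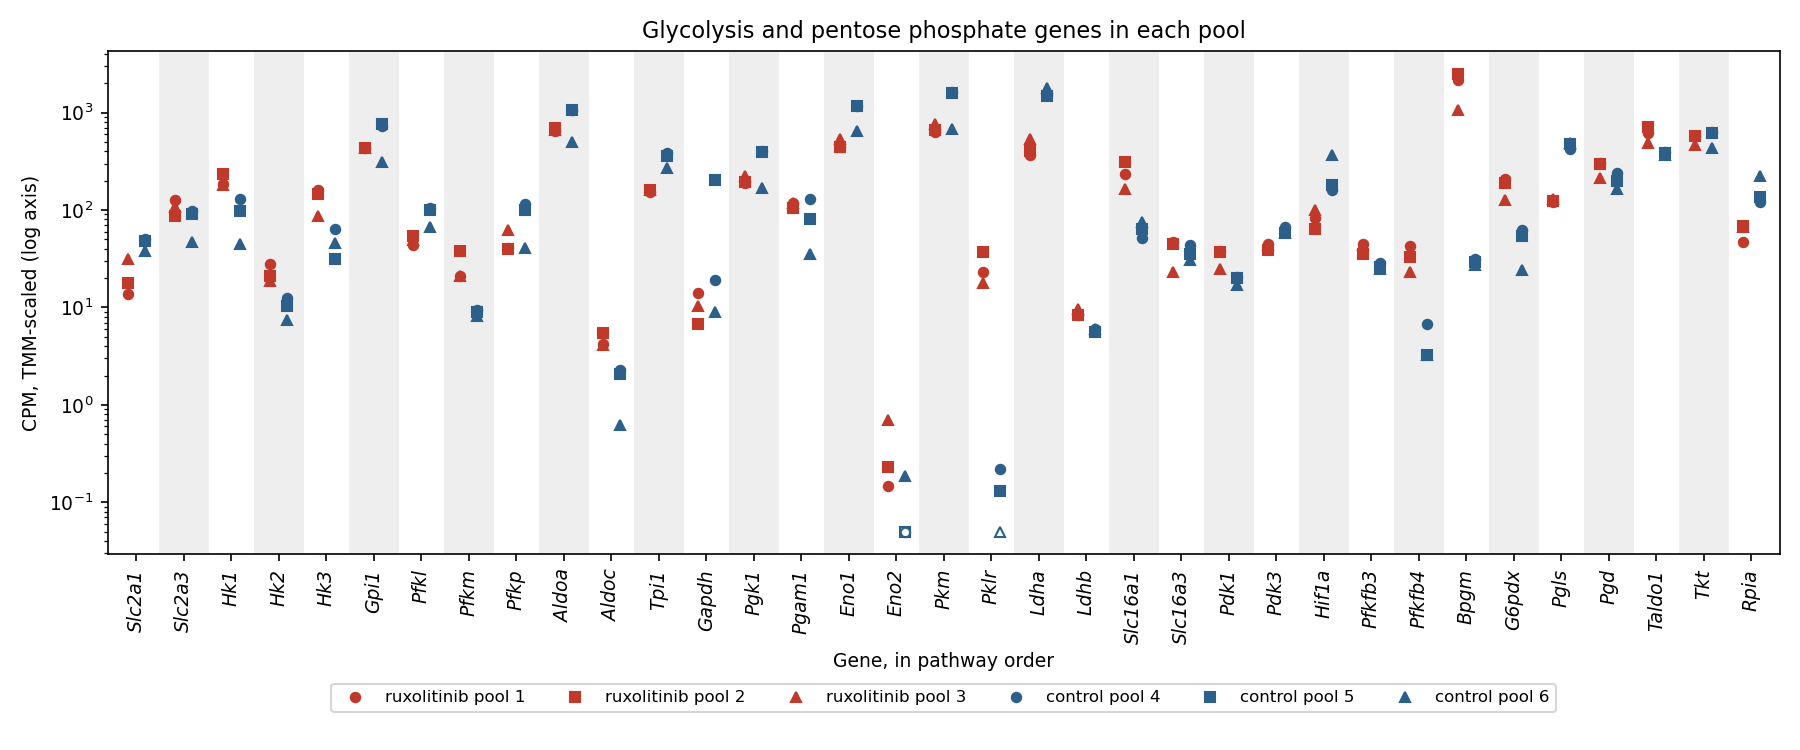
Level of each of the 35 genes in every pool, as TMM-scaled CPM on a log axis, with ruxolitinib pools in red left of control pools in blue; open symbols at the bottom are pools with 0 counts. Bpgm and Pklr sat far above their control values in all 3 ruxolitinib pools, while Ldha, Pgls and Tpi1 were lower in all 3 ruxolitinib pools than in any control pool.

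**Figure D2:**
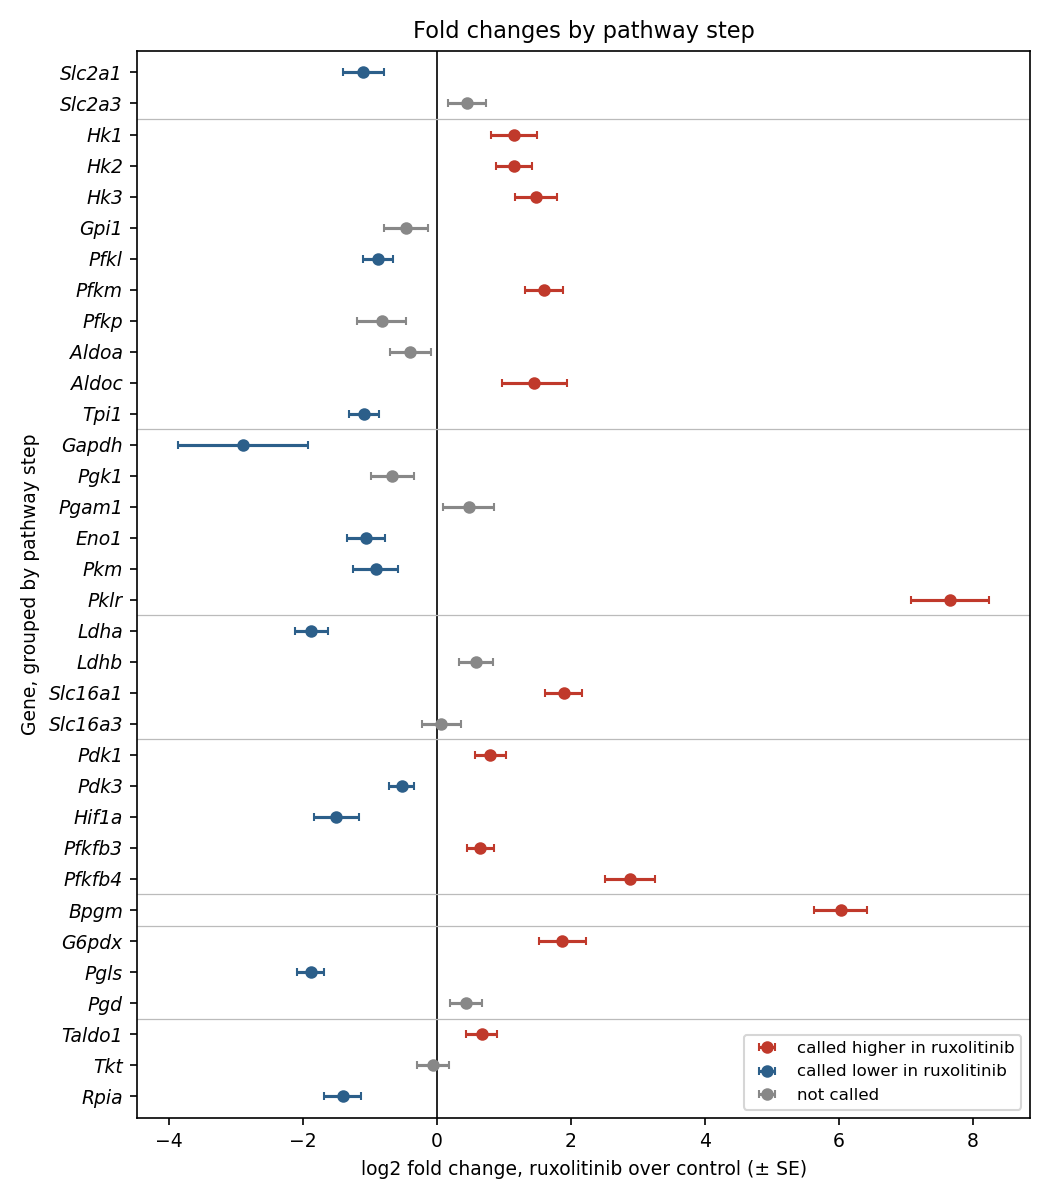
Log2 fold change of the 34 tested genes, ruxolitinib over control, with bars of 1 SE, in pathway order with lines between steps. Genes that rose (red, 13), fell (blue, 11) or did not pass (grey, 10) lie side by side in most steps, the hexokinases Hk1, Hk2 and Hk3 all rose, and Pklr and Bpgm lie apart from the rest at 7.66 and 6.03.

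Bpgm and Pklr, the members most tied to red cells, had the largest increases of the 34. Bpgm, which lies at 34476207 to 34505613 of chromosome 6 in the deposited mm10 coordinates, had 2138, 2512 and 1071 CPM in ruxolitinib pools 1, 2 and 3, against 31.1, 29.0 and 27.5 CPM in control pools 4, 5 and 6. For Bpgm the log2 fold change was 6.03 ± 0.40 with adjusted p = 1.63e-05. The groups did not overlap, and the lowest ruxolitinib pool, pool 3, still exceeded the highest control pool many times over. Bpgm reads alone were 26.1, 28.4 and 15.3% of the reads of all 35 genes in ruxolitinib pools 1, 2 and 3, and 0.313, 0.295 and 0.393% in control pools 4, 5 and 6. Haemoglobin genes took 22.6, 17.5 and 13.4% of all reads in those ruxolitinib pools and 0.189, 0.179 and 0.258% in those control pools, so pool 3 was the lowest ruxolitinib pool in both. Pgam1, the related mutase of the main pathway, which carries 3-phosphoglycerate to 2-phosphoglycerate, had 118, 104 and 118 CPM in the ruxolitinib pools, against 129, 80.0 and 35.01 CPM in the control pools, and its groups overlapped. It did not pass. For Pgam1 the log2 fold change was 0.47 ± 0.38 with adjusted p = 0.317 (0.99 with adjusted p = 0.0296 without control pool 4).

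Pklr, at 89136142 to 89146784 of chromosome 3, encodes the pyruvate kinase of liver and red cells and makes its red cell form from a promoter of its own, upstream of the liver start. It had 317, 490 and 284 reads in ruxolitinib pools 1, 2 and 3, against 4, 2 and 0 reads in control pools 4, 5 and 6, which is 23.2, 37.3 and 17.95 CPM against 0.222, 0.131 and 0 CPM. For Pklr the log2 fold change was 7.66 ± 0.59 with adjusted p = 2.21e-05. With so few control reads the size of that fold is poorly determined, and it was 8.49 without control pool 4. Its order among the ruxolitinib pools was that of Bpgm, with pool 2 highest and pool 3 lowest. Even so Pklr reached only 5.64 ± 2.24% of pyruvate kinase transcripts per length in the ruxolitinib pools, and Pkm was the main pyruvate kinase gene in both groups.

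The RefSeq promoter windows of Pklr and Bpgm (GRCm38.p6, from 250 bases before to 50 bases after a start, both on the plus strand) are shown because these genes rose most, with 2 motifs in capitals on either strand, AGATAA, which GATA1 and its relatives bind, and CACCC, which KLF1 and its relatives bind. The upstream Pklr window, at chr3:89135892-89136191, ends 50 bases past the start that the deposited gene position also uses, and the downstream one, at chr3:89136373-89136672, belongs to the second RefSeq start. The Bpgm window lies at chr6:34476106-34476405, and the deposited Bpgm position starts inside it, before the RefSeq start.
Pklr upstream start: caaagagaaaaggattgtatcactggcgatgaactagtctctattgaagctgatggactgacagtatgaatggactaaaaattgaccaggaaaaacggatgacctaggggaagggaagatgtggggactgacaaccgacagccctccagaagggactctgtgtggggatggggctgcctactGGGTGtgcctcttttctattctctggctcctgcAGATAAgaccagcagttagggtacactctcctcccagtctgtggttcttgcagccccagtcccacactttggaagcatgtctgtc
Pklr downstream start: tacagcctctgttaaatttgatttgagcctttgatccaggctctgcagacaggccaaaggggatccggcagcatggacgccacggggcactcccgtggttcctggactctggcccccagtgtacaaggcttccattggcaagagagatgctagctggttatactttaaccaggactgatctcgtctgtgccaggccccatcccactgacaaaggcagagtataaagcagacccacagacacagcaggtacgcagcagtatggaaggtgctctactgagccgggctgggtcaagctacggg
Bpgm: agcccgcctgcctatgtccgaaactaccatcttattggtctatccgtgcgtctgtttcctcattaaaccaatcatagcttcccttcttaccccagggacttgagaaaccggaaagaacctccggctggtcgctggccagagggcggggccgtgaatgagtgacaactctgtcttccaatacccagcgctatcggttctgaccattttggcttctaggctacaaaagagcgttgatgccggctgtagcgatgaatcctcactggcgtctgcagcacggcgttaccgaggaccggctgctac
The upstream Pklr window holds AGATAA 35 bases before the start and GGGTG, the reverse strand of CACCC, 68 bases before it. The downstream Pklr window and the Bpgm window hold neither motif, which says only that those letters are not in these windows. AGATAA is in 11.2% and CACCC in 57.5% of all 32851 promoter windows, and in 4 and 32 of the 49 windows of the 34 genes in the table that are described here (Slc2a3 is not in it). The 4 windows with AGATAA are the upstream one of Pklr and 3 of Pfkm, some of which overlap each other. A match of letters is a description and not a binding site.

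The hexokinase genes, whose products trap glucose in the cell as glucose 6-phosphate, rose together. Hk1, the form of red cells and most tissues, had 185, 234 and 181 CPM in ruxolitinib pools 1, 2 and 3, against 128, 97.1 and 44.98 CPM in control pools 4, 5 and 6. For Hk1 the log2 fold change was 1.15 ± 0.34 with adjusted p = 0.0175 (0.0644 without ruxolitinib pool 2). Hk2, the inducible form of activated lymphocytes and muscle, had 27.9, 20.9 and 18.6 CPM in the ruxolitinib pools, against 12.5, 10.5 and 7.35 CPM in the control pools. For Hk2 the log2 fold change was 1.15 ± 0.27 with adjusted p = 0.0058. Hk3, the form of granulocytes and macrophages, had 162, 146 and 86.7 CPM in the ruxolitinib pools, against 64.3, 31.3 and 46.0 CPM in the control pools. For Hk3 the log2 fold change was 1.48 ± 0.32 with adjusted p = 0.00339. All 3 ruxolitinib pools lay above all 3 control pools for each gene, as they did for 4813 of all 13480 tested genes. Control pool 6 had the lowest Hk1 and Hk2, and control pool 5 the lowest Hk3. The balance of the 3 forms showed no such shift. Per length, Hk3 made up 56.0 ± 6.66% of hexokinase transcripts in the ruxolitinib pools and 51.8 ± 13.3% in the control pools (SD, n = 3 each), Hk1 38.0 ± 6.78% and 41.3 ± 12.6%, and Hk2 6.04 ± 0.932% and 6.87 ± 1.09%. These shares differed by less than their spread between pools. Hk3 overlaps Unc5a on the opposite strand, which has 11.0% as many reads and rose as well (2.20 ± 0.36). The sources used here do not name the strand setting, without which reads of overlapping genes cannot be told apart.

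Of the glucose transporters, Slc2a1 (GLUT1), which activated T cells place on their surface and which mouse red cells lose after birth, fell, and Slc2a3 (GLUT3) did not pass. Slc2a1 had 13.8, 18.02 and 31.5 CPM in the ruxolitinib pools, against 49.8, 48.0 and 37.9 CPM in the control pools. For Slc2a1 the log2 fold change was -1.10 ± 0.30 with adjusted p = 0.0124 (0.0646 without ruxolitinib pool 1 and 0.0547 without ruxolitinib pool 2). The groups did not overlap, and ruxolitinib pool 3 was closest to the controls. For Slc2a3 the values were 126, 86.8 and 108 CPM in the ruxolitinib pools, against 97.0, 90.6 and 46.9 CPM in the control pools (log2 fold change 0.45 ± 0.29, adjusted p = 0.206), and control pool 6 was the lowest library.

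The phosphofructokinase genes, which encode the main control step of the pathway, moved apart. Pfkm, the muscle form that red cells also carry, had 20.9, 38.3 and 21.2 CPM in the ruxolitinib pools, against 9.36, 8.90 and 8.22 CPM in the control pools (log2 fold change 1.60 ± 0.29, adjusted p = 0.00126), without overlap of the groups. Pfkl, the liver form, which red cells carry as well, had 43.8, 53.8 and 49.4 CPM in the ruxolitinib pools, against 104, 100.5 and 66.6 CPM in the control pools (log2 fold change -0.88 ± 0.22, adjusted p = 0.00806), again without overlap and in the other direction. Pfkp, the platelet form found in many cells, had 40.6, 40.1 and 62.5 CPM in the ruxolitinib pools, against 115, 99.2 and 40.4 CPM in the control pools. For Pfkp the log2 fold change was -0.83 ± 0.36 with adjusted p = 0.0773. There control pool 6 was alone among its group in reaching the ruxolitinib level, and without it the value was -1.17 with adjusted p = 0.00272. As shares of phosphofructokinase transcripts per length, Pfkm was 41.6 ± 8.44% in the ruxolitinib pools and 12.3 ± 3.14% in the control pools, and Pfkl 39.1 ± 2.99% and 60.7 ± 3.50%. Pfkm overlaps Senp1 on the opposite strand, which has 248% as many reads and did not pass (log2 fold change 0.20 ± 0.18), and Pfkp overlaps Pitrm1, which has 48.2% as many and rose (2.54 ± 0.45). The part of these partners in the values was not tested.

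Among the other enzymes of the upper part, Tpi1, which interconverts the triose phosphates, fell. Its values were 153, 162 and 160.2 CPM in the ruxolitinib pools, against 389, 355 and 269 CPM in the control pools (log2 fold change -1.09 ± 0.22, adjusted p = 0.00231), tight within the ruxolitinib pools and well below every control pool. Gpi1, the isomerase after hexokinase, had 433, 437 and 434 CPM in the ruxolitinib pools, against 734, 759 and 312 CPM in the control pools. For Gpi1 the log2 fold change was -0.47 ± 0.33 with adjusted p = 0.246. Aldoa, the main aldolase gene, which splits fructose 1,6-bisphosphate, had 648, 699 and 658 CPM in the ruxolitinib pools, against 1072, 1072 and 505 CPM in the control pools. For Aldoa the log2 fold change was -0.40 ± 0.31 with adjusted p = 0.287. Both were lower in the ruxolitinib pools than in control pools 4 and 5 but higher than in control pool 6. Without that pool both passed, at -0.79 (adjusted p = 0.00764) for Gpi1 and -0.69 (adjusted p = 0.0168) for Aldoa. Aldoc, the brain aldolase, is rare here at 4.17, 5.47 and 4.11 CPM in the ruxolitinib pools, against 2.27, 2.09 and 0.623 CPM in the control pools. It rose (log2 fold change 1.46 ± 0.48, adjusted p = 0.0278), with adjusted p of 0.0569, 0.0991 and 0.0505 without ruxolitinib pool 1, 2 or 3. When the CD8 identity genes set the scale, Tpi1 stood at 0.90, Gpi1 at 1.56, Aldoa at 1.62, Pfkl at 1.10 and Slc2a1 at 0.68, all below the 2.00 of all genes. That scaling shifts all genes by a similar amount, so their place below the median follows from the main fit.

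In the lower part of the pathway the enolase gene Eno1 fell, with 442, 444 and 541 CPM in the ruxolitinib pools, against 1163, 1159 and 644 CPM in the control pools. For Eno1 the log2 fold change was -1.05 ± 0.28 with adjusted p = 0.0107 (0.0508 without ruxolitinib pool 1). Pkm, the pyruvate kinase of lymphocytes and most other cells, also fell, with 628, 664 and 758 CPM in the ruxolitinib pools, against 1615, 1572 and 674 CPM in the control pools. For Pkm the log2 fold change was -0.91 ± 0.34 with adjusted p = 0.0426. Its groups overlapped through control pool 6, which lay between the ruxolitinib pools. The call for Pkm is weak, since its adjusted p was 0.136, 0.116 and 0.061 without ruxolitinib pool 1, 2 or 3, and 0.139 and 0.144 without control pool 4 or 5. It was 0.0579 with limma-voom and 0.0687 with library totals in place of TMM factors. Pgk1, whose product makes the first ATP of the pathway, did not pass at 190.0, 194 and 225 CPM in the ruxolitinib pools, against 408, 394 and 166 CPM in the control pools (log2 fold change -0.67 ± 0.33, adjusted p = 0.107), and without control pool 6 it was -0.99 with adjusted p = 0.00238. Under scaling to the CD8 identity genes Eno1, Pkm and Pgk1 turned to 0.91, 1.08 and 1.32. Their place below the median of all genes again follows from their values in the main fit. Eno2, the neuronal enolase, had 2, 3 and 11 reads in the ruxolitinib pools and 0, 0 and 3 in the control pools and was not tested.

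Gapdh, a gene often taken as a constant standard, was neither abundant nor constant in this table. It had 13.9, 6.77 and 10.4 CPM in ruxolitinib pools 1, 2 and 3, against 19.2, 203 and 9.03 CPM in control pools 4, 5 and 6. For Gapdh the log2 fold change was -2.90 ± 0.97 with adjusted p = 0.0289. Control pool 5 held nearly all the reads of its group, the other control pools overlapped the ruxolitinib pools, and without pool 5 the value was -0.43 (adjusted p = 0.414). The adjusted p was 0.196 without the filter on low counts and 0.185 with limma-voom, where the value was -1.70. Leaving out ruxolitinib pool 1, 2 or 3 gave adjusted p of 0.0803, 0.104 and 0.0811. Its neighbours in the pathway, Tpi1 and Pgk1, did not show a comparable rise in pool 5. Gapdh has many near-identical pseudogenes in the mouse genome, as do several other glycolytic genes in smaller number, and the sources used here do not name how reads that match several places were handled, so its level is uncertain. Its position also overlaps Iffo1 on the other strand, which has 82.1% as many reads and rose (1.63 ± 0.22).

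Ldha, which encodes the lactate dehydrogenase subunit of activated T cells, was the most abundant of the 35 genes per length in the control pools and fell. It had 368, 405 and 531 CPM in ruxolitinib pools 1, 2 and 3, against 1521, 1484 and 1779.9 CPM in control pools 4, 5 and 6 (log2 fold change -1.88 ± 0.25, adjusted p = 0.00029), and the groups lay far apart. Ruxolitinib pool 3 was the highest of its group. Ldhb, the subunit of heart, had 8.34, 8.36 and 9.67 CPM in the ruxolitinib pools and 6.04, 5.56 and 6.04 CPM in the control pools, without overlap of the groups, but did not pass. For Ldhb the log2 fold change was 0.58 ± 0.26 with adjusted p = 0.0817. Of the lactate transporters, Slc16a1 (MCT1), which red cell precursors carry, rose, with 232, 313 and 163 CPM in the ruxolitinib pools, against 51.7, 63.6 and 75.7 CPM in the control pools (log2 fold change 1.89 ± 0.28, adjusted p = 0.000459), and ruxolitinib pool 3 again stood nearest to the controls. Slc16a3 (MCT4), the exporter of highly glycolytic cells, had 47.1, 45.01 and 22.9 CPM in the ruxolitinib pools, against 44.2, 35.2 and 30.6 CPM in the control pools (log2 fold change 0.062 ± 0.29, adjusted p = 0.868), and its sign turned with single pools left out. Relative to the CD8 identity genes Ldha stood at -0.015, so that it differed from those genes by far less than its SE of 0.56.

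The RefSeq promoter windows of Ldha and Pgk1 (GRCm38.p6, plus strand) are shown because both genes are textbook targets of the hypoxia-inducible factor HIF-1, with ACGTG, the core of its response element, in capitals on either strand. The Ldha window is the upstream of its 2 windows, at chr7:46845554-46845853, and the Pgk1 window is at chrX:106186850-106187149.
Ldha: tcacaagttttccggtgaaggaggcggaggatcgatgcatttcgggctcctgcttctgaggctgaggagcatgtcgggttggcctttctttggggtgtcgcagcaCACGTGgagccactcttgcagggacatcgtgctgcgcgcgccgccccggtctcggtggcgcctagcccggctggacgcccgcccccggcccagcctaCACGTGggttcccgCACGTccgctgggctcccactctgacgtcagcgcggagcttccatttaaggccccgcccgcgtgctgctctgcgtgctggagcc
Pgk1: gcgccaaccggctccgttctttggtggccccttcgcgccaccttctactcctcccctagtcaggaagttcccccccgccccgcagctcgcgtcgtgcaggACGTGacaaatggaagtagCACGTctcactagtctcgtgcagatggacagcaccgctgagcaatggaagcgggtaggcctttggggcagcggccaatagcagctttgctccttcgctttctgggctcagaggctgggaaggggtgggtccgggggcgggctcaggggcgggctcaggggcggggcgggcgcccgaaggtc
In the Ldha window the motif is found at 3 places, 2 of which are the palindrome CACGTG that holds it on both strands and that MYC and other E-box factors also bind. In the Pgk1 window it is found at 2 places, 150 and 131 bases before the start. ACGTG is in 19.6% of all promoter windows and in 21 of the 49 windows (42.9%) of the 34 genes with a window, in 18 of those genes. Of those genes, Hk1, Hk2, Hk3, Pfkm, Aldoc, Slc16a1, Pfkfb3 and G6pdx rose, Slc2a1, Gapdh, Pkm, Ldha, Pdk3 and Hif1a fell, and Aldoa, Pgk1, Pgam1 and Slc16a3 did not pass. Windows of neighbouring starts overlap in part, and E-box matches are counted among those of ACGTG.

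Hif1a, which encodes the oxygen-regulated subunit of HIF-1, fell. Its values were 83.5, 63.9 and 99.995 CPM in ruxolitinib pools 1, 2 and 3, against 159, 179 and 364 CPM in control pools 4, 5 and 6. For Hif1a the log2 fold change was -1.50 ± 0.34 with adjusted p = 0.00418. Control pool 6 stood well above the other controls, and all 3 controls lay above all 3 ruxolitinib pools. The bifunctional enzymes Pfkfb3 and Pfkfb4 set the level of fructose 2,6-bisphosphate, the activator of phosphofructokinase, and both rose. Pfkfb4 had 43.0, 32.8 and 22.9 CPM in the ruxolitinib pools, against 6.81, 3.27 and 3.24 CPM in the control pools (log2 fold change 2.88 ± 0.37, adjusted p = 0.000236), and Pfkfb3 changed less, with 45.3, 35.2 and 43.6 CPM in the ruxolitinib pools, against 28.4, 26.0 and 24.8 CPM in the control pools. For Pfkfb3 the log2 fold change was 0.65 ± 0.20 with adjusted p = 0.0194 (0.0652, 0.0507 and 0.073 without ruxolitinib pool 1, ruxolitinib pool 3 or control pool 5). Control pool 4 was the highest control for Pfkfb4. The pyruvate dehydrogenase kinases, which inhibit the pyruvate dehydrogenase complex, split. Pdk1 rose, at 37.9, 37.1 and 24.9 CPM in the ruxolitinib pools, against 20.4, 19.9 and 17.1 CPM in the control pools. For Pdk1 the log2 fold change was 0.80 ± 0.23 with adjusted p = 0.0149 (0.0599 without ruxolitinib pool 2). Pdk3 fell, at 44.3, 39.1 and 44.1 CPM in the ruxolitinib pools, against 66.8, 58.7 and 58.6 CPM in the control pools. For Pdk3 the log2 fold change was -0.53 ± 0.18 with adjusted p = 0.0319. The groups of both were separate, but the fall of Pdk3 is small and was lost with any pool but control pool 6 left out (adjusted p 0.0507 to 0.13), with library totals (0.0717) and without the filter on low counts (0.0601). Under CD8 identity scaling Hif1a and Pdk3 had values of 0.32 and 1.43.

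The 6 pentose phosphate genes went in different directions, with 2 that rose, 2 that fell and 2 that did not pass, shares near those of all tested genes (29.9% higher and 25.3% lower). G6pdx, which encodes glucose-6-phosphate dehydrogenase, the entry enzyme and NADPH source whose loss in people causes red cell lysis under oxidants, had 207, 188 and 127 CPM in ruxolitinib pools 1, 2 and 3, against 63.1, 54.8 and 24.5 CPM in control pools 4, 5 and 6. For G6pdx the log2 fold change was 1.87 ± 0.35 with adjusted p = 0.00162. Pgls, the lactonase of the next step, had 122, 124 and 129 CPM in ruxolitinib pools 1, 2 and 3, against 427, 478 and 483 CPM in control pools 4, 5 and 6. For Pgls the log2 fold change was -1.89 ± 0.20 with adjusted p = 9.31e-05. These neighbouring steps of the oxidative branch changed in opposite directions, each with separate groups. Pgd, the last oxidative enzyme and the second NADPH source, had 304, 297 and 212 CPM in the ruxolitinib pools, against 238, 197 and 166 CPM in the control pools (log2 fold change 0.44 ± 0.24, adjusted p = 0.143), and ruxolitinib pool 3 lay inside the control range. The G6pdx position overlaps Ikbkg on the opposite strand, which has 30.6% as many reads and a value of 0.36 ± 0.19 that did not pass.

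In the non-oxidative branch Rpia, which makes ribose 5-phosphate, fell and Taldo1, the transaldolase, rose. Rpia had 47.1, 67.8 and 66.5 CPM in the ruxolitinib pools, against 121, 137 and 223 CPM in the control pools (log2 fold change -1.41 ± 0.28, adjusted p = 0.00207), highest in control pool 6. Taldo1, the second most abundant of the 35 genes per length in the ruxolitinib pools, had 622, 705 and 487 CPM in the ruxolitinib pools, against 394, 381 and 368 CPM in the control pools. For Taldo1 the log2 fold change was 0.67 ± 0.23 with adjusted p = 0.0313. Its call did not hold without ruxolitinib pool 1 (adjusted p = 0.0652) or 2 (0.112), without control pool 4 (0.0737) or 5 (0.0979), or without the filter on low counts (0.0676). Tkt, the transketolase, had 579, 580.4 and 467 CPM in the ruxolitinib pools, against 638, 621 and 434 CPM in the control pools, and did not pass (log2 fold change -0.058 ± 0.24, adjusted p = 0.851), with a sign that turned when single pools were left out. Under CD8 identity scaling Pgls and Rpia, the genes of this pathway that fell, stood at 0.057 and 0.44, and G6pdx and Taldo1 at 4.01 and 2.70.

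Ratios between related genes inside a library do not depend on how libraries are scaled, and 13 were computed as log2 of counts per length with 0.5 count added. The 6 pools were permuted exactly for each, two-sided, with p adjusted over the 13, and 3 against 3 can give no p under 0.1. The log2 ratio of Pklr to Pkm was -4.14 ± 0.62 in the ruxolitinib pools and -12.80 ± 0.89 in the control pools (SD, n = 3 each), a difference of 8.66 ± 0.63 (exact p = 0.1, adjusted 0.13). With 4, 2 and 0 Pklr reads in control pools 4, 5 and 6, the size of that difference depends on the added count and is poorly determined. The log2 ratio of Bpgm to Pgam1 was 3.02 ± 0.72 in the ruxolitinib pools and -2.26 ± 0.87 in the control pools, a difference of 5.28 ± 0.65 with the same exact p. Bpgm was thus the more abundant of the pair per length in every ruxolitinib pool and Pgam1 in every control pool. Against these the hexokinase ratios barely moved. Hk1 to Hk2 differed by 0.10 ± 0.32 (exact p = 0.6) and Hk3 to Hk2 by 0.32 ± 0.36 (exact p = 0.5), adjusted 0.650 and 0.591. Both differences were smaller than their SE, and the first turned to -0.058 without ruxolitinib pool 2 and -0.12 without control pool 6.

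Of the further ratios, Ldhb to Ldha was -4.53 ± 0.16 in the ruxolitinib pools and -7.00 ± 0.11 in the control pools, a difference of 2.46 ± 0.11, and had the smallest spread. Pfkm to Pfkp differed by 2.27 ± 0.60, Pfkfb4 to Pfkfb3 by 2.29 ± 0.41, Aldoc to Aldoa by 1.96 ± 0.25, Slc16a1 to Slc16a3 by 1.85 ± 0.36 and Pdk1 to Pdk3 by 1.31 ± 0.24. In each of these the ruxolitinib pools lay above the control pools. Slc2a1 to Slc2a3 was the one ratio in which they lay below, with a difference of -1.68 ± 0.46. Eno2 to Eno1 rests on 0 to 11 Eno2 reads and differed by 3.50 ± 1.34, or by 2.46 with 2 counts added and 4.95 with 0.1. Pfkl to Pfkp overlapped between the groups, with a difference of -0.13 ± 0.35. All ratios whose groups did not overlap had the smallest possible exact p of 0.1, adjusted 0.13, so the design cannot place any of them under 0.05.

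**Figure D3:**
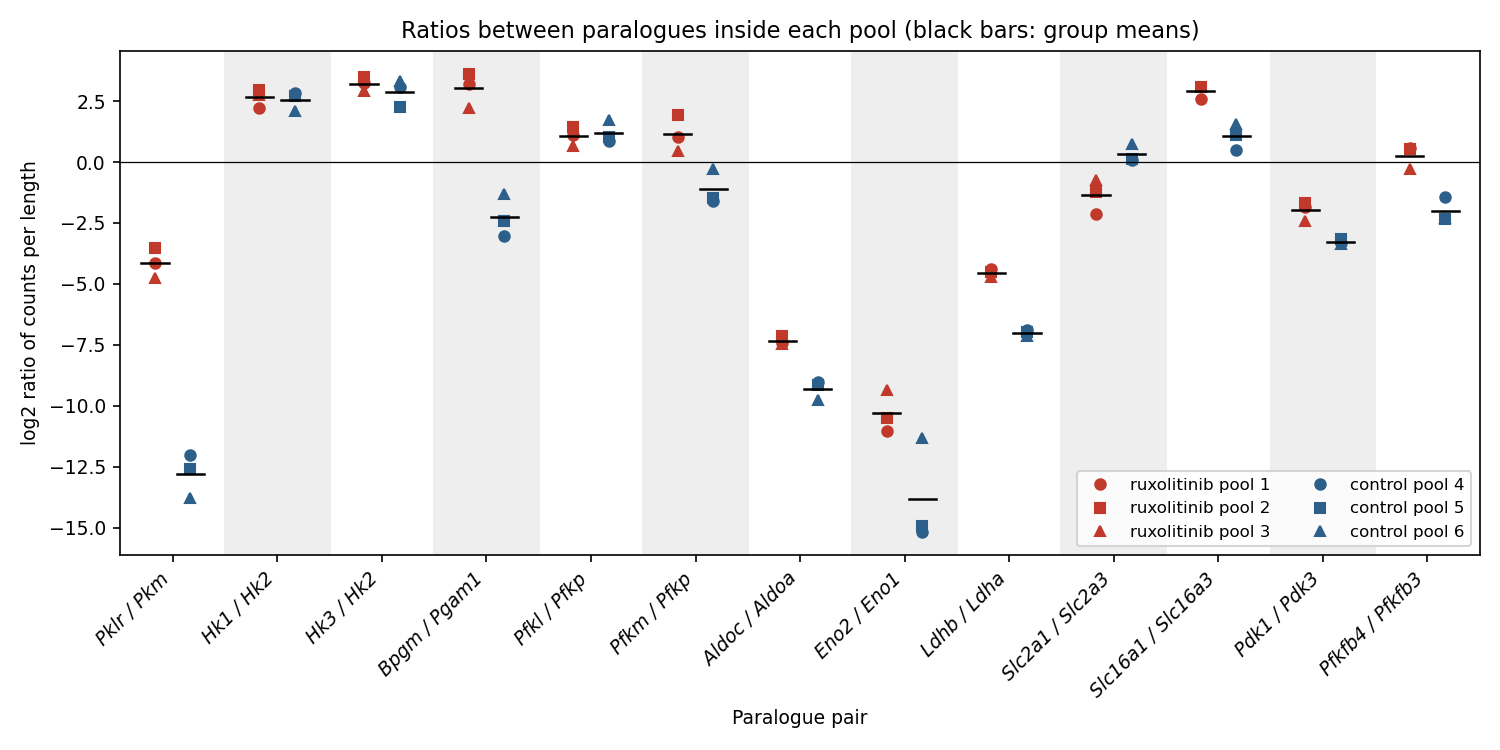
Log2 ratio of counts per length between 13 pairs of related genes in each pool, with ruxolitinib pools in red left of control pools in blue and group means as black bars. Pklr to Pkm and Bpgm to Pgam1 are separated by 8.66 and 5.28 log2 units, while both hexokinase ratios and Pfkl to Pfkp overlap. The Pklr ratio rests on 4, 2 and 0 Pklr reads in control pools 4, 5 and 6, so the size of its separation is poorly determined.

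Pools of the same group were not alike for these genes. In control pool 6, 27 of the 34 genes were lower than the mean of control pools 4 and 5, with a median log2 difference of -0.45, beside -0.023 over all tested genes, whose 10th and 90th percentiles were -0.96 and 0.72. The difference was -2.73 for Gapdh, whose control reads lie mostly in pool 5, -1.53 for Pgam1, -1.39 for Pfkp, -1.30 for Hk1, -1.27 for Pgk1, -1.26 for Gpi1, -1.26 for Aldoc, -1.25 for G6pdx, -1.24 for Pkm and -1.09 for Aldoa. For each of these but Gapdh, Aldoc and G6pdx it was larger in size than the log2 fold change between the groups. The 7 genes that were instead higher in pool 6 were Hif1a (1.11), Rpia (0.79), Slc16a1 (0.40), Ldha (0.24), Pgls (0.10), Ldhb (0.056) and Hk3 (0.034). The CD8 identity genes had a geometric mean of 556, 542 and 416 CPM in control pools 4, 5 and 6.

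In ruxolitinib pool 3, 12 of the 13 genes that rose were lower than the mean of ruxolitinib pools 1 and 2, all but Pfkfb3, and all 11 genes that fell were higher. Of all tested genes, 3512 of the 4037 called higher were lower in that pool and 2573 of the 3407 called lower were higher. Over the 34 members together, 17 were lower and 17 higher, with a median of 0.012, beside -0.047 over all tested genes. The log2 difference was -1.11 for Bpgm, -0.82 for Hk3, -0.73 for Slc16a1, -0.70 for Pfkfb4 and -0.70 for Pklr, and 0.98 for Slc2a1, 0.46 for Ldha and 0.45 for Hif1a. The geometric mean of the CD8 identity genes was 93.6, 112 and 256 CPM in ruxolitinib pools 1, 2 and 3, highest in pool 3, and its haemoglobin share was the lowest of the 3. Whether those differences account for the values of pool 3 was not tested.

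**Figure D4:**
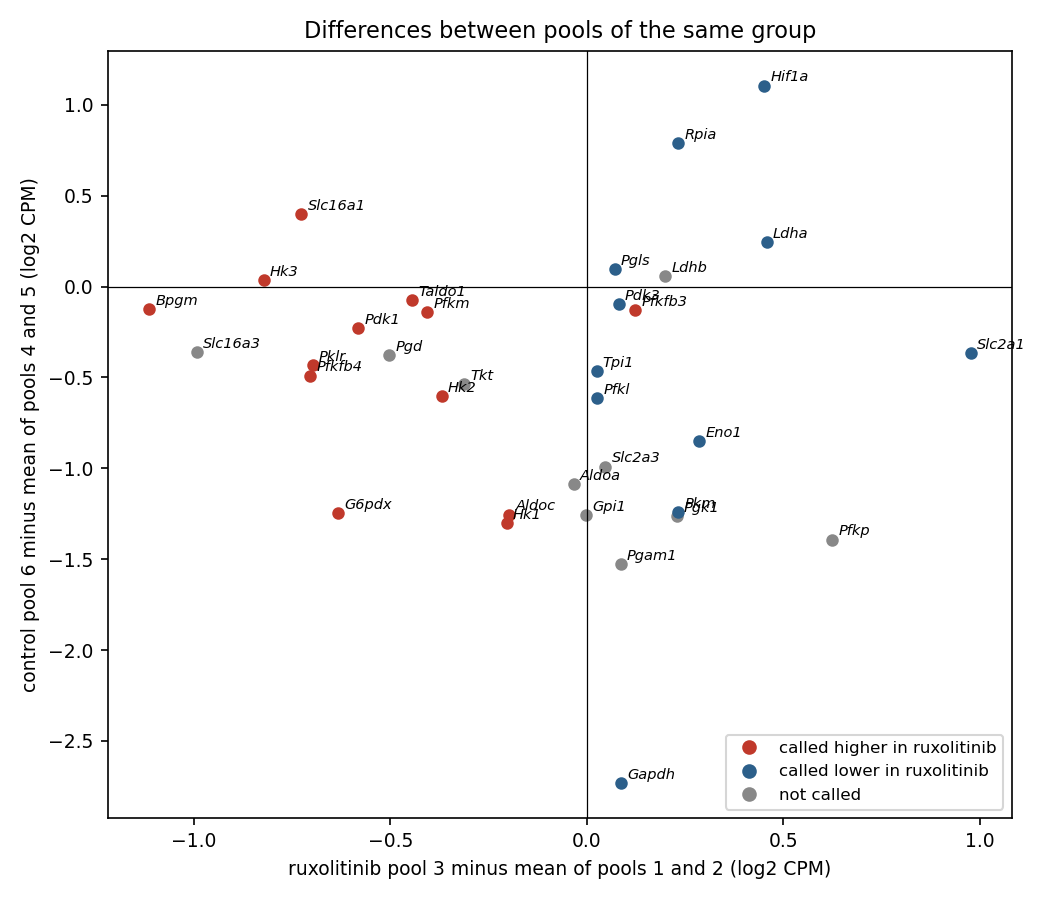
Differences between pools of the same group in log2 CPM for the 34 tested genes. The x axis gives ruxolitinib pool 3 minus the mean of ruxolitinib pools 1 and 2 and the y axis control pool 6 minus the mean of control pools 4 and 5, with colours for the call between the groups. Genes called higher lie mostly left of 0 (12 of 13), genes called lower lie right of it (11 of 11), and 27 of the 34 lie below 0 on the y axis.

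A wider list of 63 other genes of glycolysis, its branches and the pentose phosphate pathway had 47 tested members. Of these 15 rose and 8 fell, 24 did not pass, and the median was 0.067, beside 29.9% higher, 25.3% lower and a median of 0.032 over all tested genes. Slc2a4 (GLUT4), the insulin-regulated glucose transporter, which adult mouse red cells also carry, rose, with 206, 375 and 201 reads in the ruxolitinib pools against 2, 2 and 0 in the control pools (log2 fold change 7.72 ± 0.62, adjusted p = 2.34e-05). With so few control reads the size of this fold is poorly determined too. Slc16a7 (MCT2), a lactate and pyruvate transporter, also rose, with 15.001, 14.9 and 10.5 CPM in the ruxolitinib pools, against 0.332, 0.523 and 0.0623 CPM in the control pools (log2 fold change 5.43 ± 0.52, adjusted p = 4.69e-05). Gpd1, the cytosolic glycerol-3-phosphate dehydrogenase, rose (157, 175 and 98.5 CPM in the ruxolitinib pools, against 11.1, 10.4 and 5.73 CPM in the control pools, log2 fold change 3.98 ± 0.33, adjusted p = 2.70e-05), and so did the kinase gene Pdk2 (2.51 ± 0.40, adjusted p = 0.000648). Galk1, which brings galactose into the pathway, fell (11.1, 18.2 and 24.5 CPM in the ruxolitinib pools, against 121, 119.9 and 129 CPM in the control pools, log2 fold change -2.78 ± 0.29, adjusted p = 7.30e-05), and so did the muscle enolase gene Eno3 (-1.53 ± 0.24, adjusted p = 0.000634).

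Of 25 tested of 29 listed genes of the HIF pathway outside glycolysis, 8 rose and 8 fell, 9 did not pass, and the median was -0.15. Both counts are near the shares of all tested genes, 29.9% higher and 25.3% lower. The transferrin receptor gene Tfrc (507, 638 and 281 CPM in the ruxolitinib pools, against 43.5, 51.7 and 56.2 CPM in the control pools, log2 fold change 3.24 ± 0.33, adjusted p = 6.42e-05) and Bnip3l (769.7, 757 and 408 CPM in the ruxolitinib pools, against 79.9, 75.2 and 68.4 CPM in the control pools, log2 fold change 3.11 ± 0.30, adjusted p = 4.83e-05), which encodes the receptor that clears mitochondria from maturing red cells, rose. Both are also abundant in red cell precursors, and all 13 measured red cell markers rose in the same libraries. What part red cell precursors have in the values of Tfrc and Bnip3l was not tested. The cytokine gene Mif (109.8, 136 and 150.2 CPM in the ruxolitinib pools, against 677, 776 and 463 CPM in the control pools, log2 fold change -2.28 ± 0.27, adjusted p = 0.000153) fell, as did the mitochondrial protein genes Higd1a (-1.70 ± 0.24, adjusted p = 0.00039) and Fam162a (-0.86 ± 0.19, adjusted p = 0.00409), and the low-abundance gene Ankrd37 (-2.60 ± 0.37, adjusted p = 0.000365).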

How the data were processed

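RNA of 6 libraries of CD8 bead-selected marrow cells was analysed, 3 from ruxolitinib-treated and 3 from control mice. The submitters' processing notes name HISAT2 2.0.5 and mm10. The counting program, its strand setting, its handling of reads with several matches and its annotation release are named in none of the sources used here. The table deposited by the authors gives unscaled counts of reads for each gene, and a gene length in bases with no note on how it was derived. Groups came from the sample labels, and each column bears the name in 1 sample's title.

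Counts were fitted over the whole table with edgeR 4.0.16 in R 4.3.3 (filterByExpr, TMM factors, robust glmQLFit, glmQLFTest, group as the only term), with adjusted p under 0.05 as threshold, after tests on simulated data. The SE is the log2 fold change divided by the square root of F. RPKM are these TMM-scaled CPM per kilobase of the deposited length. Totals of 13829808 to 17708196 reads leave genes near 1 CPM with few reads and a large counting error. Where a symbol had several identifiers, the one with most reads was used. Alternatives were RLE and upper-quartile factors, total counts, haemoglobin genes removed before TMM, scaling to 17 CD8 identity genes, no filter, 1 CPM in 3 libraries, protein-coding genes alone, DESeq2 1.42.0, limma-voom (3.58.1) with and without quality weights, a minimum fold of 1.5, and leaving out each pool. Identity scaling assumes that the drug does not alter those genes themselves, which was not tested. Promoter windows are those of RefSeq for GRCm38.p6, the assembly of mm10, and motifs were searched as exact letters on both strands. The members, the lists and the rule for naming genes were chosen with earlier results of these data known. The rule names all 35 members, up to 6 called genes of smallest p with at least 5 CPM from each further list, and the 2 most abundant of each marker list.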

Additional observations from a re-analysis of the deposited data

How the results depend on the processing

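No paired analysis was possible because the pools are numbered 1 to 3 in one group and 4 to 6 in the other. Under 17 alternatives of the fit, other than scaling to the CD8 identity genes, 511 values of single members kept their direction and side of the threshold, 47 lost the call, 13 gained one and 7 changed sign without being called. Of the 13 genes that rose, 8 were called under each of those alternatives, and of the 11 that fell, 5. The same counts over all tested genes are not given here. Called genes numbered 7444 (5750 to 8313 with 1 pool left out), 3444 to 4482 higher and 2306 to 3831 lower, members that rose 9 to 13, members that fell 6 to 15, and the median of members 0.015 to 0.40. With a minimum fold of 1.5, 6 of the 34 members fell, beside 2172 of all 13480 tested genes, and 8 members rose. The number of all genes higher in that fit is not given here, so the 8 cannot be set against a share. With limma-voom quality weights Gpi1, Pfkp, Aldoa, Pgk1, Ldhb and Pgd also passed, and without the filter on low counts Pfkp and Pgk1. Scaled to the CD8 identity genes, 9494 genes were higher and 65 lower, 23 members were higher and 0 lower, and the median of members was 2.34, beside 2.00 for all genes. The sign turned there for Slc2a1 (0.68), Gpi1 (1.56), Pfkl (1.10), Pfkp (1.09), Aldoa (1.62), Tpi1 (0.90), Pgk1 (1.32), Eno1 (0.91), Pkm (1.08), Pdk3 (1.43), Hif1a (0.32), Pgls (0.057), Tkt (1.99) and Rpia (0.44). Slc16a3 turned to -0.0017 with limma-voom, -0.10 and -0.071 without ruxolitinib pool 1 or 2 and -0.068 without control pool 6, and Tkt (-0.23 to 0.048 over these fits) to 0.034 without ruxolitinib pool 3 and 0.048 and 0.023 without control pool 4 or 5. Among ratios, the difference was 8.18 to 9.05 for Pklr to Pkm, 4.89 to 5.75 for Bpgm to Pgam1, 0.015 to 0.55 for Hk3 to Hk2 and -0.12 to 0.32 for Hk1 to Hk2 with 1 pool left out, and -0.31 to 0.13 for Pfkl to Pfkp, which turned to 0.068 without ruxolitinib pool 3 and 0.13 without control pool 6. The cause of these changes was not tested.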

Other observations

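Genes next to the main pathway, picked from the wider list after their values were seen, also differed between the groups. The glycerol phosphate shuttle, which carries electrons from cytosolic NADH into mitochondria, has a cytosolic enzyme gene, Gpd1, that rose, and a mitochondrial one, Gpd2, that fell with 51.6, 41.1 and 61.6 CPM in the ruxolitinib pools, against 84.4, 61.6 and 87.3 CPM in the control pools (log2 fold change -0.60 ± 0.23, adjusted p = 0.0481). The Gpd2 groups overlapped, and its adjusted p lay just under the threshold. Of the pyruvate dehydrogenase subunits, Pdha1 rose, just under the threshold (54.3, 49.3 and 53.6 CPM in the ruxolitinib pools, against 35.8, 39.3 and 16.6 CPM in the control pools, log2 fold change 0.78 ± 0.30, adjusted p = 0.0498). Pdhb fell (78.1, 93.6 and 74.8 CPM in the ruxolitinib pools, against 125, 152 and 398 CPM in the control pools, log2 fold change -1.45 ± 0.40, adjusted p = 0.0123), with control pool 6 far above the other controls. Other genes of that complex, Dlat (-0.31 ± 0.18, adjusted p = 0.174), Dld (-0.42 ± 0.25, adjusted p = 0.176) and Pdhx (0.31 ± 0.25, adjusted p = 0.317), did not pass. The phosphoribosyl pyrophosphate synthetase genes, which use ribose 5-phosphate for nucleotide synthesis, fell, Prps1 with 26.9, 29.9 and 33.6 CPM in the ruxolitinib pools, against 59.1, 79.4 and 125 CPM in the control pools (log2 fold change -1.54 ± 0.28, adjusted p = 0.00141) and Prps2 with 42.4, 34.6 and 47.9 CPM in the ruxolitinib pools, against 69.3, 62.1 and 75.2 CPM in the control pools (log2 fold change -0.73 ± 0.20, adjusted p = 0.0123). The partner proteins of the lactate transporters also split. Bsg, which encodes basigin, rose (539.5, 929.9 and 504 CPM in the ruxolitinib pools, against 349, 345 and 142 CPM in the control pools, log2 fold change 1.24 ± 0.38, adjusted p = 0.0206) and Emb, which encodes embigin, fell (55.6, 38.9 and 32.7 CPM in the ruxolitinib pools, against 83.7, 129.6 and 109 CPM in the control pools, log2 fold change -1.34 ± 0.26, adjusted p = 0.00191).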
